A study of Mus musculus with 12 samples.

Results

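Immunoglobulin gene segments are the germline pieces from which B cells build antibodies, and 124 of the 19564 genes listed in this mouse kidney RNA-seq series were of this kind. They were taken by annotation alone: every listed gene whose transcript type was an immunoglobulin gene, on the heavy, kappa or lambda locus. All 124 were listed in the table of dimtdT cells, and 4 of them, Ighm, Ighd, Igha and Igkc, were also listed in the table of brighttdT cells. The heavy locus gave 7 constant and 44 variable segments. The kappa locus gave 1 constant, 61 variable and 3 joining segments, and the lambda locus gave 3 of the constant, 3 of the variable and 2 of the joining kind. No diversity segment was listed.

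An antibody is made of paired heavy and light chains. A developing B cell cuts and joins a variable, a joining and, for the heavy chain, a diversity segment into a single exon, which is spliced to a constant segment, and the descendants of that cell keep the joined segments. Naive B cells splice the heavy exon to Ighm (IgM) or Ighd (IgD), and after activation class switching replaces these by Ighg3, Ighg1, Ighg2b, Ighg2c (the IgG subclasses) or Igha (IgA, the main antibody of mucosal surfaces). Plasma cells, which secrete antibody, hold far more immunoglobulin RNA per cell than resting B cells.

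The libraries were made from glomerular endothelial cells (GEC) of C57BL/6 mice of 4 months. All mice carried the TekCre and tdTomato reporter alleles, so that cells that express or once expressed Tek, an angiopoietin receptor, fluoresce. Tek-driven Cre is also known to be active in the blood-forming lineage. Wild type mice (WT) were compared with Col4a5 -/- mice, a model of Alport syndrome (AS), in which a collagen IV chain of the glomerular basement membrane is lost. Glomeruli were sieved from renal cortex and digested, and cells were sorted by a low (dim) or high (bright) tdT signal. Each of 3 mice of each genotype gave a dim and a bright library, so each of the 4 groups held 3 libraries and a total of 12 were measured. Replicates are numbered by mouse, and the same number in the dim and bright groups of a genotype is the same animal.

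The deposited values were read counts per gene, with 11440169 to 13923267 counts in the dim libraries and 13674045 to 15074909 in the bright libraries. Col4a5 was covered by 439 to 877 counts in WT dim and by 17 to 51 in AS dim libraries, and by 69 to 158 in WT bright and 43 to 104 in AS bright libraries, which overlapped. The endothelial list of 10 markers summed to 10610 to 17540 CPM (counts scaled to a common effective library size by the trimmed mean of M-values, TMM) in bright libraries. In dim libraries it was lower, at 657 to 1272 CPM in WT and 210 to 292 CPM in AS, and 6 of its 9 tested genes fell in AS. The dim libraries therefore carried their label's markers at a lower level than the bright ones. They also held markers of B cells, at 1083 to 1855 CPM in WT and 1133 to 1841 CPM in AS over 16 genes, and of macrophages, at 2662 to 4558 CPM in WT and 6285 to 8346 CPM in AS over 10 genes. Proximal tubule markers moved the other way in dim libraries, from 1333 to 6075 CPM in WT to 13.2 to 345 CPM in AS. In sorted bulk samples, fewer cells of a type and less RNA per cell cannot be told apart.

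On the GRCm38 build the listed heavy segments lie on the minus strand of chromosome 12 (chr12:113254830-115953005), the kappa segments on both strands of chromosome 6 (chr6:67609713-70726966) and the lambda segments on the minus strand of chromosome 16 (chr16:19061618-19260859). Read in the direction of transcription, the heavy constant segments come in the order Ighm, Ighd, Ighg3, Ighg1, Ighg2b, Ighg2c, Igha. Exonic length differs between the kinds of segment and limits the reads each can collect: in the Gencode M21 annotation the joining segments are 38 to 42 bases long, the variable segments 344 to 480 bases and the constant segments 452 to 2678 bases.

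The IgG segments are partly alike at their start. Ighg2b and Ighg1 had the largest log2 differences between the genotypes among the segments tested in dim cells. The first 60 bases of the first constant exon are therefore shown 5′ to 3′ from the Gencode M21 transcripts. Capitals mark the bases that differ from Ighg2b at the same position.
Ighg2b: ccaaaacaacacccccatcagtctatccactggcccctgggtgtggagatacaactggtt
Ighg2c: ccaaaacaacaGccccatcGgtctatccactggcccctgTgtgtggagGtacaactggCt
Ighg1: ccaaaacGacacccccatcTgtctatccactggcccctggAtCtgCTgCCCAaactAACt
Ighg3: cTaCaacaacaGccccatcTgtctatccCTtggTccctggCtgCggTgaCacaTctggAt
Ighg2c shares 55 of these 60 bases with Ighg2b, and Ighg1 and Ighg3 share 47 each. Over their whole transcripts, 5.49% of the 50-base windows of Ighg2c, 4.15% of Ighg2b, 1.58% of Ighg3 and 0.393% of Ighg1 also occur in another gene, while no 100-base window of any of the 11 constant segments does.

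The variable segments that the results turn on are shown by their last 60 bases, which code for the end of the third framework region and the start of the third complementarity region. Capitals mark the last match to TNCTGT, the codons around the conserved cysteine before the junction.
Ighv1-9: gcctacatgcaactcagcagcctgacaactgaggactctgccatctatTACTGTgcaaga
Ighv1-69: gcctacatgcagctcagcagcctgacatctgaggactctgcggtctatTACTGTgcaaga
Igkv8-19: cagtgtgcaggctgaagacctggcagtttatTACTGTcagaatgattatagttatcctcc
Igkv5-48: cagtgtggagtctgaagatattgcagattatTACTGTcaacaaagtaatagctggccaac
Ighv10-3: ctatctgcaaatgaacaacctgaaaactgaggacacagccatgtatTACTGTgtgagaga
Ighv1-9 (chr12:114583569-114584002) and Ighv1-69 (chr12:115623161-115623595) share 56 of these 60 bases, and Igkv8-19 (chr6:70340876-70341453) and Igkv5-48 (chr6:69726573-69727138) share 43. The motif, searched on the coding strand of the last 60 bases, was present in 82 of the 108 listed variable segments and in 12.1% of the longest transcripts of protein-coding genes.

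Similarity between variable segments bears on every count below, since only uniquely placed reads were counted. Of the 108 listed variable segments, 93 shared at least 1 window of 50 bases with another gene, and 45 shared at least 1 of 100 bases. For Ighv1-69 the share was 40.1% of the 50-base windows and for Igkv8-19 24.6%, whereas it was 0.576% for Ighv1-9 and 0 for Igkv5-48. Reads of 150 bases in pairs span more than these windows, and the counts lost to multiple placement were not measured.

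The first comparison asked which segments differed between AS and WT in dim cells. Immunoglobulin counts made up 0.179%, 0.214% and 0.210% of gene counts in the WT dim libraries and 0.311%, 0.313% and 0.261% in the AS dim libraries. Summed over all 124 segments this was 2065 ± 137 CPM in WT and 2863 ± 242 CPM in AS (SD, n = 3 mice each), 1.39 times higher in AS, with every AS library above every WT library. The heavy constant segments held most of it, at 1555 ± 161 CPM in WT and 2221 ± 258 CPM in AS.

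Ighm, the heavy constant segment of IgM, was counted at 872, 584 and 1006 CPM in WT versus 1267, 1336 and 877 CPM in AS. The lowest AS library lay inside the WT range, and the log2 difference of 0.50 (SE 0.25) did not pass (edgeR quasi-likelihood test, Benjamini-Hochberg adjusted p = 0.246). Ighd, the segment of IgD, was counted at 528, 412 and 664 CPM in WT against 612, 678 and 374 CPM in AS, a log2 difference of 0.05 (SE 0.26) by the same edgeR test (adjusted p = 0.924). The Ighd groups overlapped at both ends. Within a library, however, there were 0.605, 0.706 and 0.660 Ighd counts per Ighm count in WT versus 0.483, 0.507 and 0.427 in AS, so this ratio was lower in all 3 AS libraries than in any WT library.

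Igha was the most variable abundant constant segment. It was counted at 112, 416 and 60.02 CPM in WT against 441, 322 and 623 CPM in AS. WT replicate 2 lay within the AS range and the other 2 WT libraries lay well below it. The log2 difference was 1.24 (SE 0.63) and did not pass with all 6 libraries (edgeR adjusted p = 0.258). It passed without WT replicate 2, at 2.39 (edgeR adjusted p = 0.0368).

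The 4 IgG segments were scarce in WT and were present in each AS library. Together they had 58, 30 and 7 counts in WT versus 642, 492 and 618 in AS, or 2.75 ± 2.29 and 44.1 ± 4.17 CPM (SD, n = 3), a ratio of 16.01 with no overlap. The ratio was 28.3 without WT replicate 1, and 11.5 to 16.8 without each of the other libraries. Ighg2b, the IgG2b segment, had 20, 3 and 4 counts in WT against 219, 116 and 80 in AS. It rose by a log2 difference of 3.72 (SE 0.72, edgeR adjusted p = 0.0241). Ighg1, the IgG1 segment, had 27, 17 and 3 counts in WT versus 156, 358 and 90 in AS, and rose by 3.52 (SE 0.80, edgeR adjusted p = 0.0368). In both segments the lowest AS library lay well above the highest WT library.

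The other 2 subclasses did not pass the filter on low counts, which asked for 0.808 CPM in 3 libraries, and behaved less evenly. Ighg2c, the IgG2c segment, had 0, 1 and 0 counts in WT against 158, 9 and 442 in AS. The groups did not overlap, but the AS libraries spanned a wide range with replicate 2 far below the others. Over the group totals of 609 and 1 counts the ratio was 539 (95% exact binomial interval 96.4 to 21340, counting error only), and without the filter the edgeR adjusted p was 0.0805. With AS replicate 2 left out, Ighg2c passed the filter through AS libraries only and was called. Ighg3 had 11, 9 and 0 counts in WT versus 109, 9 and 6 in AS, so that its excess rested on AS replicate 1 and the remaining libraries overlapped.

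**Figure D1:**
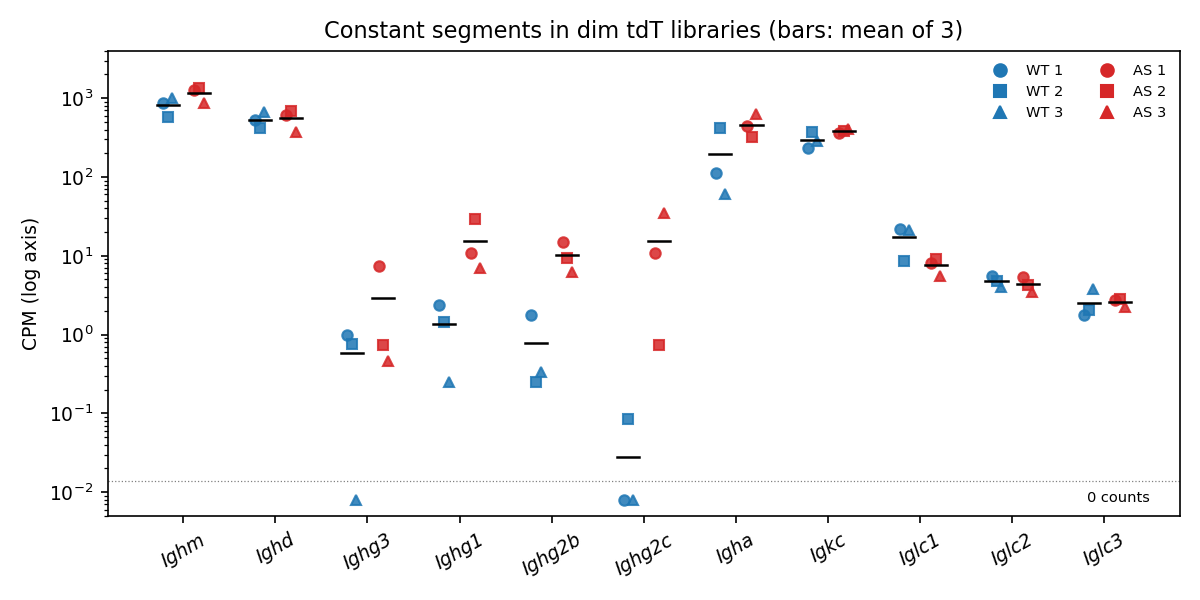
CPM of the 11 constant segments in each dim tdT library, on a log axis, with WT in blue, AS in red, a marker shape per replicate and a bar at the mean of 3 libraries. Points under the dotted line have 0 counts. Ighg1, Ighg2b and Ighg2c are separated by genotype, Igha is spread widely in WT, and Ighm, Ighd, Igkc and the lambda segments overlap.

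As shares of the heavy constant counts, Ighm held 57.5%, 41.3% and 58.1% in WT against 53.6%, 56.2% and 45.6% in AS. Igha held 7.41%, 29.4% and 3.47% in WT versus 18.6%, 13.6% and 32.4% in AS. WT replicate 2 thus had the highest Igha share of its group (95% Wilson interval 28.7% to 30.1%, counting error only) and was nearest to AS replicate 3. The interval does not cover the spread between mice. Ighd held 34.8%, 29.1% and 38.4% in WT against 25.9%, 28.5% and 19.5% in AS, lower in every AS library, although the nearest libraries were 29.1% and 28.5%. The IgG segments held 0.339%, 0.179% and 0.0336% in WT versus 1.87%, 1.67% and 2.504% in AS. The widest of the 95% Wilson intervals for WT ended at 0.438% and the lowest AS interval began at 1.53%, so IgG was separated beyond counting error in every library.

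**Figure D2:**
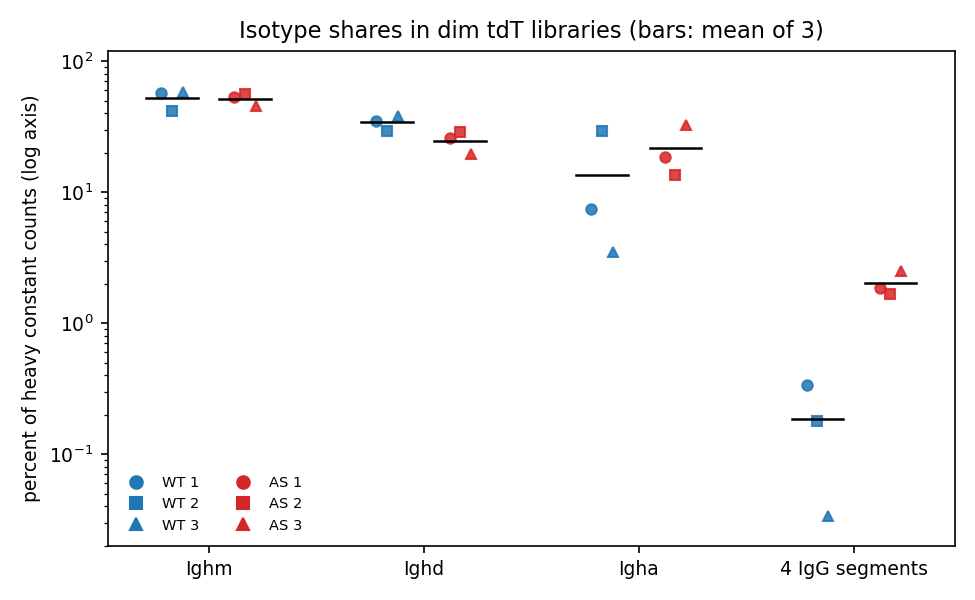
Percent of heavy constant counts taken by Ighm, Ighd, Igha and the 4 IgG segments together in each dim tdT library, on a log axis, with WT in blue, AS in red and a bar at the mean of 3. The IgG share lies between 0.0336% and 0.339% in WT and between 1.67% and 2.504% in AS, and the Igha share of WT replicate 2 sits among the AS libraries.

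The light chain constant segments differed less. Igkc, the only kappa constant segment, was counted at 230, 370 and 284 CPM in WT against 363, 378 and 403 CPM in AS, with a log2 difference of 0.37 (SE 0.20, edgeR adjusted p = 0.291). Only WT replicate 2 reached into the AS range. Iglc1, the most counted lambda segment, went the other way, at 21.6, 8.51 and 21.2 CPM in WT versus 8.12, 9.22 and 5.61 CPM in AS. Its log2 difference of -1.16 (SE 0.45) did not pass (edgeR adjusted p = 0.147), and WT replicate 2 lay among the AS libraries. Iglc2 and Iglc3, the other lambda constant segments, averaged 4.74 ± 0.756 and 2.54 ± 1.12 CPM in WT and 4.39 ± 1.01 and 2.62 ± 0.310 CPM in AS (SD, n = 3), with log2 differences of -0.10 and 0.04. Lambda therefore held 11.1%, 3.96% and 9.28% of light constant counts in WT against 4.30%, 4.14% and 2.73% in AS. WT replicate 2 again kept the groups from separating.

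Levels of different constant segments can be set side by side per kilobase of exon. Among the constant segments, Igkc led in both genotypes, with means of 554 in WT and 717 in AS CPM per kilobase. Ighm followed at 435 and 615 CPM per kilobase, then Ighd at 281 and 292 and Igha at 73.6 and 173. The ranges of Igkc and Ighm overlapped in both genotypes, those of Ighm and Ighd in WT, and those of Ighd and Igha in AS, so the order of these neighbours was not separated by the spread there. Iglc1 averaged 37.6 CPM per kilobase in WT and 16.9 in AS. In AS, Ighg2c averaged 11.6, Ighg1 6.01, Ighg2b 3.82 and Ighg3 1.15 CPM per kilobase, with ranges that overlapped between neighbours.

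Of the 124 segments, 73 passed the filter in dim and 51 did not. Those tested were 5 of 7 heavy constant, 21 of 44 heavy variable, 40 of 61 kappa variable and all 7 of the kappa constant, lambda constant and lambda variable segments. Of the tested segments, 5 were higher in AS and 0 were lower at an adjusted p under 0.05 in edgeR, while 2.21% of all 14637 genes tested were higher and 6.42% were lower. At an unadjusted p under 0.05, 17 of the 73 were higher and 1 was lower, against 10.3% and 15.9% of all genes. The median log2 difference was 0.89 over the tested segments and -0.02 over all genes. These counts describe the segments that passed and not all 124: 4 of those tested reached 0.808 CPM in AS libraries only, so they could only differ upward, and 1 did so in WT libraries only.

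The called segments depended on the form of the test. With the quasi-likelihood fit of edgeR version 3, 0 of the 73 segments passed and 0.888% of all genes were higher. In that fit 14 segments were higher and 1 was lower at an unadjusted p under 0.05, against 9.5% and 14.9% of all genes. The adjusted p in that fit was 0.0544 for Ighg2b, 0.0659 for Ighg1, 0.0684 for Ighv1-9, 0.0769 for Ighv1-69 and 0.100 for Igkv8-19. DESeq2 called 5 segments higher, where it called 4.52% of all genes higher, and 3 of the 5 were shared with the main test, namely Ighg1, Ighg2b and Ighv1-9. Leaving out AS replicate 1 left 0 calls among the segments and among all genes. Leaving out AS replicate 3 left 0 segments and 1 gene. Without any other library between 1 and 3 segments passed, among 484 to 1825 genes in all. Some of these were not calls of the main test: Igha without WT replicate 2, Ighv1-53 without WT replicate 3 and Ighg2c without AS replicate 2. The likelihood ratio test on all libraries called 7 segments, 4 of them shared with the main test, among 1946 genes called in all. Ighg2b kept its call without 3 of the 6 libraries, Ighv1-9 without 1, and Ighg1, Ighv1-69 and Igkv8-19 without none. The log2 difference of Ighg2b stayed between 3.27 and 5.10 and that of Ighg1 between 2.69 and 4.19 when each library was left out.

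**Figure D3:**
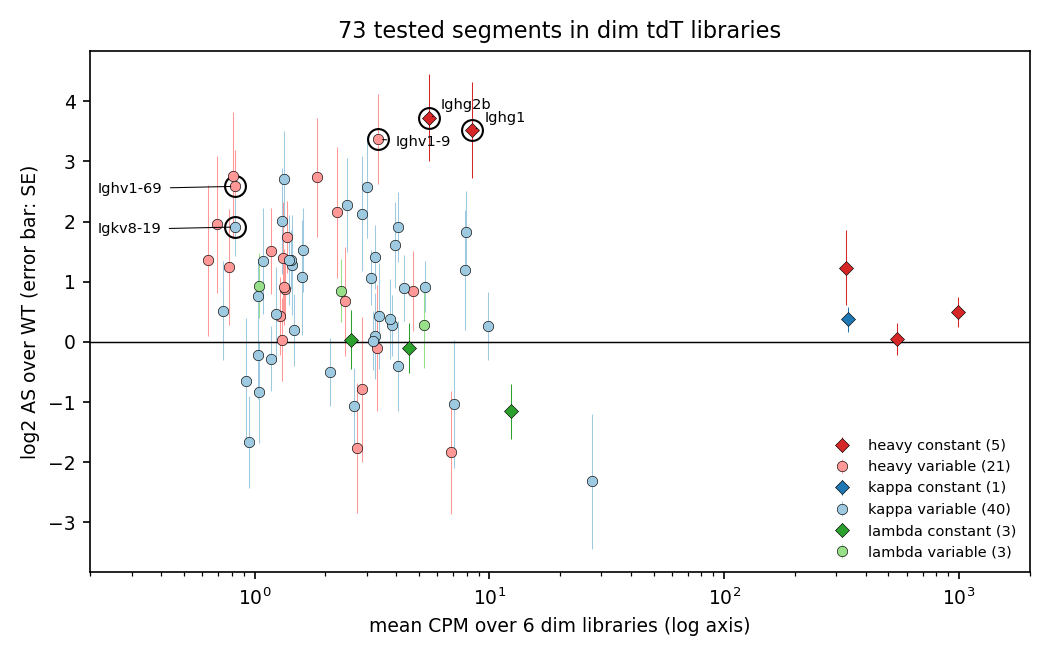
Log2 AS over WT in dim tdT libraries against mean CPM (log axis) for the 73 tested segments, by locus and kind, with standard errors. Rings mark the 5 segments with an adjusted p under 0.05. Ighm, Ighd, Igha and Igkc lie between 0.05 and 1.24, Iglc1 lies at -1.16, and the most negative point is Igkv5-48 at -2.32.

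The other 3 called segments were variable segments, which supply the antigen-binding part of a chain. Ighv1-9 had 1, 13 and 7 counts in WT versus 146, 50 and 56 in AS, and rose by a log2 difference of 3.36 (SE 0.75, edgeR adjusted p = 0.0308). It was the most counted heavy variable segment of AS replicate 1. Ighv1-69 had 1, 4 and 3 counts in WT against 15, 16 and 25 in AS, and rose by 2.58 (SE 0.60, edgeR adjusted p = 0.0277). Igkv8-19 had 3, 5 and 4 counts in WT versus 21, 18 and 13 in AS, and rose by 1.91 (SE 0.48, edgeR adjusted p = 0.0379). No group overlapped, yet the last 2 rest on few counts and passed the filter through AS libraries only.

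Several of the most counted variable segments were high in a single mouse. Igkv5-48 had 42, 1444 and 141 counts in WT against 240, 75 and 58 in AS. WT replicate 2 alone held more of it than the other 5 libraries together. The log2 difference of -2.32 (SE 1.12, edgeR adjusted p = 0.233) changed to 0.19 without that library. Ighv10-3 had 28, 325 and 26 counts in WT versus 47, 56 and 16 in AS, again with WT replicate 2 far above the rest, and its log2 difference of -1.83 became 0.33 without it. Ighv4-1 and Ighv1-76 also peaked there, with 126 and 105 counts, while Ighv10-1 had 121 counts in WT replicate 1 and 4 and 0 in the other WT libraries. Igkv12-98 reached 299 counts in WT replicate 3 against 8 and 34 in the others of its group.

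Other leading segments were spread over more mice. Ighv1-26 had 45, 69 and 5 counts in WT against 114, 74 and 56 in AS, a log2 difference of 0.84 (SE 0.67). Igkv17-127 had 123, 38 and 155 counts in WT versus 188, 170 and 71 in AS, a log2 difference of 0.26 (SE 0.56). Igkv6-15 had 61, 44 and 16 counts in WT against 65, 265 and 143 in AS, each AS library above each WT count, although the CPM of AS replicate 1 lay within the WT range. Igkv17-121 was higher in all 3 AS libraries, with 52, 33 and 44 counts in WT versus 114, 90 and 72 in AS. None of these 4 passed the edgeR test, with adjusted p from 0.142 for Igkv6-15 to 0.816 for Igkv17-127. Igkv1-135, with 25, 4 and 139 counts in WT against 59, 292 and 68 in AS, did not pass either (edgeR adjusted p = 0.498).

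The 3 lambda variable segments were few in counts. Iglv1 had 116, 31 and 17 counts in WT versus 87, 99 and 42 in AS. Iglv3 had 32, 16 and 10 in WT against 43, 37 and 39 in AS, and Iglv2 had 5, 8 and 12 in WT versus 15, 24 and 15 in AS. Iglv2 and Iglv3 were higher in every AS library, with log2 differences of 0.93 and 0.85 that did not pass (edgeR adjusted p = 0.317 and 0.356). Per 100 lambda constant counts there were 47.1, 30.4 and 11.2 lambda variable counts in WT against 61.2, 79.2 and 66.2 in AS. The kappa locus showed no such gap, with 43.5, 51.1 and 45.2 variable counts per 100 constant counts in WT versus 42.8, 45.6 and 40.2 in AS. On the heavy locus the same ratio was 2.53, 4.86 and 1.42 in WT against 2.98, 2.75 and 3.99 in AS.

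The spread of counts over the variable segments differed between the genotypes on the heavy locus. The most counted heavy segment took 27.9% in WT replicate 1 (Ighv10-1, 95% Wilson interval 23.9% to 32.4%), 39.8% in WT replicate 2 (Ighv10-3, 36.5% to 43.2%) and 21.02% in WT replicate 3 (Ighv1-53, 16.8% to 26.0%). In AS it took 14.3% (Ighv1-9, 12.3% to 16.6%), 9.17% (Ighv1-26, 7.37% to 11.4%) and 11.97% (Ighv1-42, 10.1% to 14.1%). A different segment led in each of the 6 mice. The effective number of heavy segments, the inverse of the chance that 2 counts fall on the same segment, was 8.54, 4.78 and 11.2 in WT versus 18.3, 23.8 and 19.8 in AS. WT and AS did not overlap in either measure.

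The heavy variable totals were 433, 816 and 295 counts in WT against 1023, 807 and 986 in AS, so that WT replicate 2 and AS replicate 2 were of nearly the same depth. Over 3 counts were found for 21 segments in the former and 41 in the latter. In the other libraries 18 and 18 segments of WT and 41 and 36 of AS had over 3 counts. The measure covers listed segments only, and every listed gene had at least 4 counts in at least 2 libraries of its table, so segments used in a single mouse would not be seen. Of the 44 heavy variable segments, 9 had no WT library above 3 counts and 0 had no AS library above 3 counts. Those 9 were listed through AS libraries and can only add to the AS numbers, so the gap in these numbers is a description of the listed segments.

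**Figure D4:**
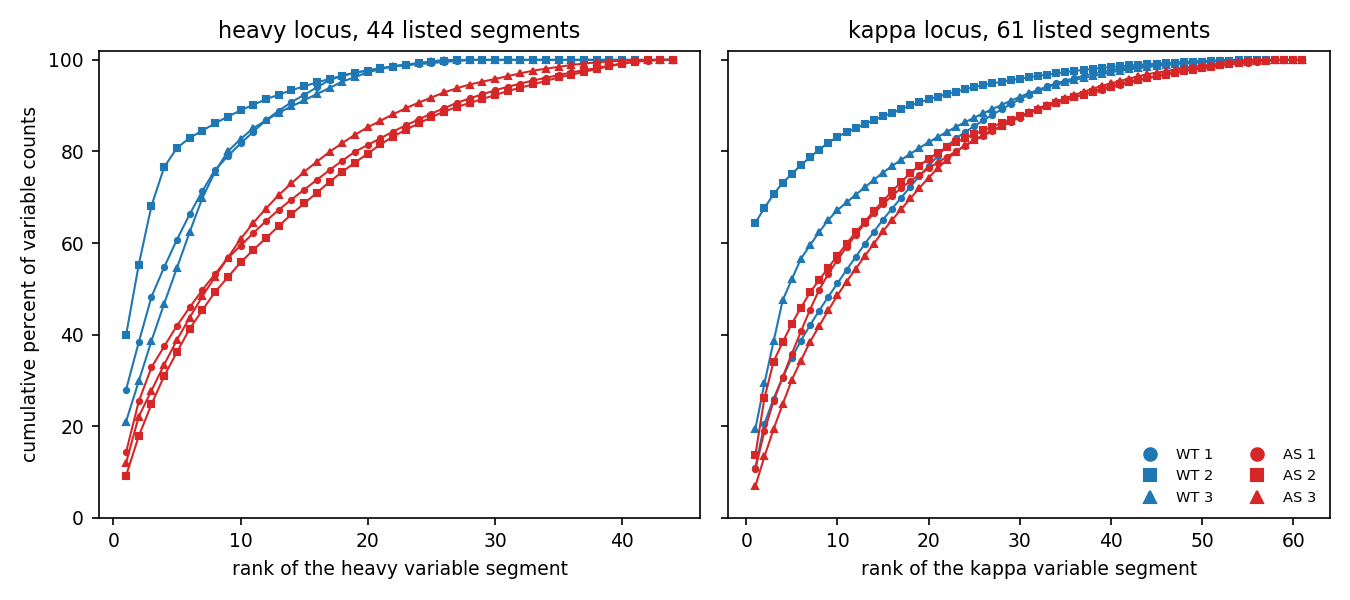
Cumulative percent of variable segment counts by rank, for the heavy (left) and kappa (right) loci, with 1 line per dim tdT library, WT in blue and AS in red. The 3 WT lines lie above the AS lines on the heavy locus, and on the kappa locus WT replicate 2 starts at 64.4% while the others start between 6.87% and 19.4%.

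On the kappa locus the picture was set by WT replicate 2. Igkv5-48 took 64.4% of its kappa variable counts (95% Wilson interval 62.4% to 66.4%). The leading segment took 10.9% in WT replicate 1 (Igkv17-127) and 19.4% in WT replicate 3 (Igkv12-98), and 10.6% (Igkv5-48), 13.7% (Igkv1-135) and 6.87% (Igkv6-15) in the AS mice. The effective number of kappa segments was 23.8, 2.38 and 13.5 in WT against 23.7, 18.4 and 29.4 in AS, which overlapped. The same WT library thus had the highest Igha share of its group, a single dominant kappa segment and the highest share of any heavy segment. Jchain, which links IgA and IgM polymers, was also highest there among WT libraries, at 859 counts against 411 and 286.

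By family, the 4 with at least 6 listed members were Ighv1, Igkv4, Igkv6 and Igkv8. Ighv1 held 25 of the 44 heavy variable segments, and 11 of its 12 tested members had a positive and 1 a negative log2 difference. Its share of heavy variable counts was 41.6%, 37.3% and 63.7% in WT versus 61.2%, 65.1% and 63.8% in AS, with WT replicate 3 inside the AS range. Igkv4 held 12 kappa segments, and the log2 difference was positive in each of the 6 tested. Its share of kappa variable counts was 7.37%, 3.70% and 5.89% in WT against 13.0%, 10.1% and 18.4% in AS, above WT in every AS library. For Igkv6 the shares were 24.4%, 8.07% and 13.98% in WT versus 11.9%, 21.9% and 14.7% in AS, and for Igkv8 7.28%, 2.01% and 5.57% against 7.31%, 4.41% and 12.5%. Among tested members, the log2 difference was positive for 4 and negative for 2 of Igkv6, and positive for 3 and negative for 1 of Igkv8. Over all 73 tested segments it was positive for 57 and negative for 16.

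Counted over all 124 segments, tested or not, the CPM of 34 lay above every WT library in every AS library, or 27.4%, against 14.1% of all 17811 genes listed in dim. Of these 34, 13 had no WT library above 3 counts, were listed through AS libraries and could not lie below. Among the 105 segments with a WT library above 3 counts, 21 lay above, or 20%, against 13% of all such genes. The 34 were 3 heavy constant, 12 heavy variable, 17 kappa variable and 2 lambda variable segments. Only 1 segment, Igkv11-125, lay below in every AS library, with 13, 13 and 25 counts in WT against 8, 0 and 10 in AS, against 15.3% of all genes. Of the 124 segments, 19 had no WT library above 3 counts, 1 had no AS library above 3 counts, and that one, Gm43218, had 11 and 4 counts in 2 WT libraries and 0 in AS. Igkv11-125 and Gm43218 were chosen for mention after their values were seen. In dim libraries a count of 0 allowed up to 0.207 to 0.266 CPM, at 3 counts per library.

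The joining segments were too short and too rarely counted to test. Their sequences are shown because their length is shorter than a read. Capitals mark the conserved joining motif, TTNGG followed by any 4 bases and GGN.
Igkj1: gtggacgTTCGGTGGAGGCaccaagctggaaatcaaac
Igkj4: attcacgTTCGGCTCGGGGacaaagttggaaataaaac
Igkj5: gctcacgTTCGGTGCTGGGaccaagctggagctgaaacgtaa
Iglj1: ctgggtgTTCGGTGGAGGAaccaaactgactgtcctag
The motif was found on the coding strand of 4 of the 5 listed joining segments, the exception being Iglj3p. The 3 kappa joining segments together had 4, 4 and 22 counts in WT versus 14, 17 and 5 in AS. Iglj1 had 8, 3 and 23 counts in WT against 4, 2 and 3 in AS, and Iglj3p had 0 in each WT library and 7, 4 and 0 in AS. The groups overlapped for each of the 5.

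The immunoglobulin counts were set beside the genes that make, switch and bind antibodies. Of 16 B cell genes all 16 were tested in dim and 0 passed in edgeR (3 at an unadjusted p under 0.05, and 1 passed in DESeq2), with a median log2 difference of 0.30 and overlapping sums. Of the 12 names in the plasma cell list 10 were tested and 0 passed in edgeR (2 at an unadjusted p under 0.05, and 2 passed in DESeq2). Jchain had a log2 difference of 1.33 (SE 0.40, edgeR adjusted p = 0.0751), and its 36.5, 72.4 and 23.8 CPM in WT lay below the 96.2, 94.6 and 143 CPM of AS. The plasma cell list summed to 721 to 865 CPM in WT and 934 to 1041 CPM in AS, but its median log2 difference was 0.15. Its largest members in WT dim libraries were Xbp1, Txndc5 and Sdc1, with means of 267, 202 and 141 CPM. In WT bright libraries, where few immunoglobulin counts were found, these 3 genes averaged 262, 135 and 95.4 CPM. After Jchain, the log2 differences of the tested genes of this list ran from -0.39 for Sdc1 to 0.91 for Irf4 (edgeR adjusted p = 0.0552 for Irf4). Tnfrsf17, a plasma cell receptor too rarely counted to test, had 0 counts in each WT library and 5, 13 and 33 in AS. In both lists the part of these cells in the immunoglobulin differences was not tested. Per 100 counts of the 16 B cell genes there were 0.475, 0.227 and 0.0314 IgG counts in WT versus 2.76, 2.16 and 4.25 in AS. These values did not overlap between the genotypes. Ighm gave 80.5, 52.5 and 54.2 counts per 100 in WT against 79.0, 72.6 and 77.5 in AS, which overlapped.

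Of the 12 recombination and class switch genes 6 were listed and tested in dim, 1 rose and 0 fell in the main edgeR test, and 0 passed in DESeq2 or in the edgeR version 3 fit. Dntt, the enzyme that adds bases at the junctions, had 5, 4 and 2 counts in WT versus 24, 21 and 14 in AS (log2 difference 2.21, SE 0.54, edgeR adjusted p = 0.0336), and is the call that is lost in those fits. Of 10 genes that bind or transport antibody or present antigen, 2 rose and 1 fell. Fcgr1, the high-affinity IgG receptor of myeloid cells, rose by 3.28 (SE 0.56, edgeR adjusted p = 0.0210). Cd74, the invariant chain of antigen presentation, rose by 0.91 (SE 0.16, edgeR adjusted p = 0.0217). Pigr, the epithelial carrier of polymeric antibody, fell by 2.62 on the log2 scale (SE 0.64, edgeR adjusted p = 0.0438), a call that is lost in the edgeR version 3 fit. The macrophage list, of which 3 of 10 genes rose, and the proximal tubule list, of which 6 of 10 fell, moved in the same libraries, as did the podocyte list, of which 1 of 6 genes rose and 3 fell (629 to 1217 CPM in WT, 525 to 547 CPM in AS). Their part in these differences was not tested. The proximal tubule count of 6 was 5 in DESeq2, 9 in the likelihood ratio test and 1 in the edgeR version 3 fit.

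The second comparison asked about AS and WT in bright cells, where 4 segments were listed. Ighm had 93, 40 and 42 counts in WT versus 94, 108 and 59 in AS, and Ighd had 34, 12 and 22 in WT against 49, 39 and 47 in AS. Igkc had 32, 6 and 18 counts in WT versus 20, 72 and 9 in AS. Igha had 3, 6 and 2 counts in WT against 5, 87 and 6 in AS, where AS replicate 2 stood far above the other 5 libraries. The Ighd counts of AS were all above those of WT, and the counts of the other 3 overlapped.

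Of the 3 segments tested in bright, 0 passed in edgeR or DESeq2 and 0 had an unadjusted p under 0.05, while 0.452% of the 14396 genes passed. The log2 differences were 0.99 for Ighd (SE 0.49, edgeR adjusted p = 0.269), 0.58 for Ighm (SE 0.46, edgeR adjusted p = 0.499) and 0.84 for Igkc (SE 0.76, edgeR adjusted p = 0.558). The Igkc value rested on AS replicate 2 and was -0.30 without it. In that library there were 0.806 Igha counts per Ighm count, against 0.0323 to 0.150 in the other bright libraries and 0.241 in the dim library of the same mouse. The B cell list, most of it Ebf1, summed to 180 CPM there, within the 128 to 197 CPM of the bright libraries, and its part in the Igha and Igkc counts was not tested.

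The third comparison set bright against dim cells of the same genotype, for the 4 segments listed in both. In WT, Ighm was counted at 862, 586 and 1020 CPM in dim and at 5.88, 2.85 and 2.76 CPM in bright libraries, with all 12 libraries scaled together. In AS it was counted at 1300, 1369 and 898 CPM in dim and at 6.85, 7.05 and 4.29 CPM in bright libraries. Every bright library lay below every dim library for Ighm, Ighd, Igha and Igkc in both genotypes.

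All 4 were lower in bright than in dim in WT, where 11.5% of all 14247 genes were lower, and all 4 in AS, where 26.5% of 14052 genes were. In WT the log2 differences were -7.68 for Ighm (SE 0.44, edgeR adjusted p = 5.86e-06), -8.42 for Ighd (SE 0.42, edgeR adjusted p = 2.94e-06), -9.56 for Igha (SE 0.94, edgeR adjusted p = 3.31e-05) and -7.84 for Igkc (SE 0.48, edgeR adjusted p = 8.08e-06). In AS they were -7.62, -7.50, -7.72 and -7.39 in the same order, with edgeR adjusted p from 3.88e-08 for Ighm to 5.81e-06 for Igha. The B cell list moved with them: of its 12 tested genes 11 were lower in bright in each genotype. In AS the remaining B cell gene was higher. Other lists moved too: 4 of 4 T cell genes and 7 of 8 macrophage genes were lower in bright in each genotype, and 10 of 10 endothelial genes were higher. The plasma cell list moved less, with 1 of 7 tested genes lower in WT and 4 of 7 in AS. Of the antibody binding and transport genes, 7 of 8 were lower in WT, and 5 of 7 were lower and 1 higher in AS. Of the podocyte genes, 4 of 6 were lower and 1 higher in WT, against 1 lower and 4 higher in AS. Of the proximal tubule genes, 0 of 10 passed in WT (2 were lower in DESeq2) and 1 of 9 was higher in AS. The part of these cell types in the differences was not tested.

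Taken mouse by mouse, the bright library held 0.271% to 0.682% of the Ighm CPM of its dim partner in WT and 0.478% to 0.526% in AS. For Ighd it held 0.207% to 0.412% in WT and 0.366% to 0.892% in AS. For Igha it held 0.102% to 0.216% in WT, and 0.0805%, 1.72% and 0.0684% in the AS mice, so AS replicate 2 stood far above the others of its group. For Igkc it held 0.890%, 0.115% and 0.411% in WT versus 0.391%, 1.21% and 0.159% in AS.

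**Figure D5:**
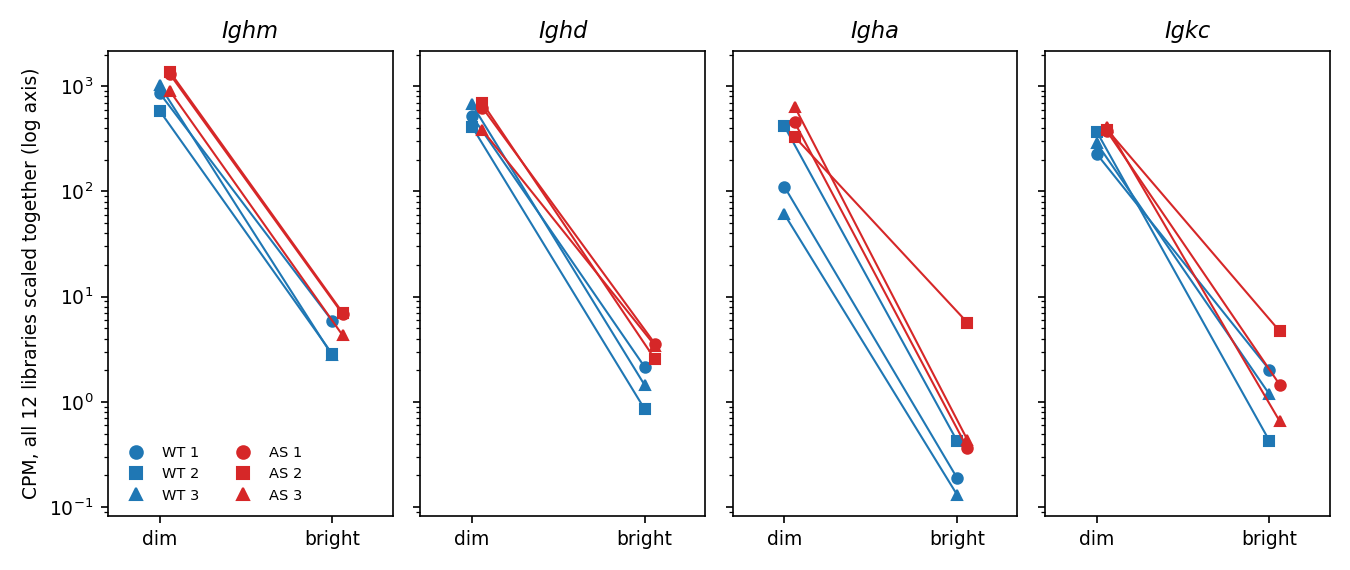
CPM of Ighm, Ighd, Igha and Igkc in the dim and bright tdT library of each mouse, joined by a line, on a log axis, with WT in blue and AS in red. Every line falls from dim to bright, and that of Igha in AS replicate 2 ends at 5.68 CPM while the other bright libraries end between 0.131 and 0.437 CPM.

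The last comparison asked whether the genotype difference itself differed between bright and dim. Of the 4 segments, 0 passed in the edgeR quasi-likelihood test or DESeq2 and 0 had an unadjusted p under 0.05 in either. In the quasi-likelihood test 3.77% of 15084 genes passed. In the likelihood ratio test 0 of the 4 passed and 1 had an unadjusted p under 0.05. The difference between the log2 genotype effects, bright minus dim, was 0.99 for Ighd (SE 0.50, edgeR adjusted p = 0.314), 1.88 for Igha (SE 1.61, edgeR adjusted p = 0.583), 0.50 for Igkc (SE 0.71, edgeR adjusted p = 0.764) and 0.12 for Ighm (SE 0.46, edgeR adjusted p = 0.922). Without AS bright replicate 2 the value was -0.71 for Igha and -0.77 for Igkc. With these standard errors, differences of several fold between the cell populations would not have been detectable for Igha.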

How the data were processed

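RNA of sorted dim and bright tdT cells was sequenced in 12 libraries as 150-base pairs. Per the labels and the study's methods, the authors checked and trimmed reads (FastQC 0.11.5, cutadapt, Trimmomatic), aligned them with STAR 2.6.0c to GRCm38.p5 with Gencode M16, and counted uniquely placed reads per gene. The strand setting is not given in the sources used here. The deposited values used were these raw counts, and the authors had not pooled replicates. The deposited gene length adds up the exons of all transcripts, so exon unions from Gencode M21 were used in its place. The authors' RPKM columns (12) and their columns of fold changes and p-values were not used. The 92 ERCC control rows were dropped (0.0286% to 0.282% of counts).

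Genes were filtered with filterByExpr and scaled by TMM, and groups were compared with edgeR 4.0.16 (R 4.3.3) by the quasi-likelihood test in its version 4 form, adjusted over all genes of a table at 0.05. The standard error is the absolute log2 difference divided by the root of F. The scripts were tested on simulated data. Intervals for shares are 95% Wilson intervals and cover counting error only. Replicates are separate mice. Dim and bright libraries of a mouse pair by animal. Alternatives included other scaling, no filter, DESeq2 1.42.0, a likelihood ratio test, a replicate block and leaving out each library. Named segments were all constant segments, the 6 heavy, 6 kappa and 3 lambda variable segments with the highest mean CPM, and the variable segments with the 3 highest and 3 lowest called log2 differences per comparison; joining segments, the leading segment of each library and families with 6 or more members were added after their values were seen. The members and lists were chosen with earlier results of these data known.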

Additional observations from a re-analysis of the deposited data

How the results depend on the processing

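In dim cells the 5 segments called higher in AS became 0 with the edgeR version 3 fit (chosen after seeing the data), 0 in a single fit of all 12 libraries, which holds only the 4 segments listed in both tables, and 0 to 3 when each library was left out. With the replicate block, which pairs libraries of the 2 genotypes by number alone, 2 were called (Ighg1 and Ighg2b). Same-numbered WT and AS dim libraries did not deviate together (correlations from -0.125 to 0.0526). Within a mouse the correlations of dim and bright deviations ran from 0.0788 to 0.380, and the block changed no call between bright and dim. Without the most abundant segment, the log2 difference of the kappa variable sum moved from 0.28 to 0.76 and that of the lambda constant sum from -0.69 to -0.069.

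Signs of uncalled differences in dim changed when libraries were left out, over ranges of -0.16 to 0.28 for Ighd, -0.32 to 0.057 for Iglc2, -0.16 to 0.46 for Iglc3, -2.31 to 0.33 for Ighv10-3, -0.81 to 2.25 for Ighv1-76, -1.39 to 3.57 for Ighv10-1, -2.30 to 0.18 for Ighv4-1, -3.14 to 0.19 for Igkv5-48, -0.19 to 0.62 for Igkv17-127, -0.076 to 3.11 for Igkv1-135, -1.79 to 1.36 for Igkv12-98 and -0.15 to 1.51 for Iglv1. The same held for Igkc in bright (-0.30 to 1.47) and, for bright minus dim, for Igha (-0.71 to 2.45), Igkc (-0.77 to 1.10) and Ighm (-0.14 to 0.58). Ighv1-76 was 0.24 with the replicate block, and the bright minus dim value of Ighm was -0.048 with library sizes alone. Of 605 recomputed gene values, 535 kept their direction and side of the threshold. The causes were not tested. With 3 mice a group, calls at few counts are close to the limit of what these libraries can show.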
